A study of Mus musculus with 3 samples.

Results

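The genes described here encode the proteins that, besides collagen IV, build basement membranes: the laminin chains Lama2, Lama4, Lama5, Lamb1, Lamb2 and Lamc1, the nidogens Nid1 and Nid2, and the proteoglycans perlecan (Hspg2) and agrin (Agrn). They were taken by gene symbol from an expression array table, from every probe set annotated to exactly 1 symbol. Of the 10 genes, 9 were found, on 10 of 9039 named probe sets, against 7842 named genes in all. Agrn had 2 probe sets and each of the others had 1. Lamc1, the gamma chain that most laminins share, had no probe set under its symbol in the annotation used here and was not analysed here.

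RNA came from cultured mouse dermal fibroblasts that received no treatment, and the 3 genotypes had 1 array each. FGFR3Act cells came from mice with the G374R form of the receptor tyrosine kinase gene Fgfr3 after removal of the neo cassette (Fgfr3G374Rneo-), which signals without a ligand. FGFR3KO cells came from mice that keep the cassette in the same allele (FGFR3G374Rneo+) and lack a functional receptor, so both mutants carry the G374R allele and the wild type does not. The wild-type cells (FGFR3WT) were those of Bl6 mice. The labels give no age, and no strain for the mutants. The series states n = 3 for each group, but the table holds 1 column per genotype, and whether a column is 1 culture or several is not given. No error between cultures could therefore be computed, no test was possible, and every difference below is one between 2 arrays.

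Basement membranes are thin sheets of matrix under epithelia and around muscle, fat, nerve and vessels. Laminins are heterotrimers of an alpha, a beta and a gamma chain that polymerise at the cell surface, where integrins and dystroglycan bind the alpha chain. Nidogens link the laminin and collagen IV networks, and the heparan sulfate chains of perlecan and agrin hold growth factors, among them fibroblast growth factors. Dermal fibroblasts supply part of the basement membrane between epidermis and dermis, nidogens in particular.

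Sequences just upstream of 4 members are shown to set the 2 proteoglycan genes, one of them with the widest spread of signals, beside a nidogen and a laminin gene. RefSeq promoter entries (build GRCm38.p6) were matched for Lama2, Lama5, Lamb1, Lamb2, Nid1, Hspg2 and Agrn, with 2 entries for Agrn. Lama4, Nid2 and Lamc1 were not matched. Letters run 5′ to 3′ on the gene's strand and end at the base before the gene's outermost annotated start, and capitals mark GC boxes (GGGCGG on either strand, overlaps counted), the motif that Sp1 family factors bind.
Hspg2 (chr4:137468553-137468750, + strand): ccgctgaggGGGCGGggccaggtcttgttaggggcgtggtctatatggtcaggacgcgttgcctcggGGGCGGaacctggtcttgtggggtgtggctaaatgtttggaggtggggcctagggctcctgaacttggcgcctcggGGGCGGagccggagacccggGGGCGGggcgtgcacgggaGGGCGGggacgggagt
Agrn (chr4:156197534-156197738, - strand): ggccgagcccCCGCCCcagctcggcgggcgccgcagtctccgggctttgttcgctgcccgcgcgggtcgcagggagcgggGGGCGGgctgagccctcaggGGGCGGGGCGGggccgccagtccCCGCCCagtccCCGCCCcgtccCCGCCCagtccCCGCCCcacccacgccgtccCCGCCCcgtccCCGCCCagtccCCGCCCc
Nid1 (chr13:13437352-13437601, + strand): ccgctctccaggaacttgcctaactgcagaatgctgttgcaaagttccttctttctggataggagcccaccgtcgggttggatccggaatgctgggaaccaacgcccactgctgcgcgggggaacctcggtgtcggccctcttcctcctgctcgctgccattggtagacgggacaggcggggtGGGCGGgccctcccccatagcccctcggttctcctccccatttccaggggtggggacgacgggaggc
Lamb2 (chr9:108479612-108479846, + strand): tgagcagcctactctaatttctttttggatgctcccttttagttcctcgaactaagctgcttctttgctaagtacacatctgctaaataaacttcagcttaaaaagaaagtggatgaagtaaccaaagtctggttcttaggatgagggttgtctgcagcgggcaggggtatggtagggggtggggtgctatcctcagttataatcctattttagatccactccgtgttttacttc

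Over the 250 bases before the start of each RefSeq entry, 6 of the 8 member entries held a GC box, against 32.7% of 32851 entries in all. Agrn held 12 at its outer start and 2 at its other entry, Hspg2 5 and Nid1 1. The laminin genes were split, with 4 for Lama5, 2 for Lamb1 and 0 for Lamb2 and Lama2. GC content over the same window was 83.6% for the outer Agrn start, 70% for Hspg2 and 64.4% for Nid1, against a median of 52.4% over all entries. Of the laminin genes, Lama5 had 72.4%, Lamb1 62%, Lama2 47.2% and Lamb2 43.6%. The AP-1 motif TGANTCA (either strand) was in 0 of the 8 and in 6.75% of all entries, and the TATA motif TATAAA (either strand) in 0 of the 8 and in 12.4%. Hspg2 with 5 boxes and Lamb2 with 0 both lay below wild type on FGFR3Act, by at least 1.5-fold, as given below.

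Signals under the 40th percentile of an array (123 on FGFR3Act, 122 on FGFR3KO and 121 on FGFR3WT) were raised to that floor, so a difference against an array under the floor is a bound. The fibroblast label fitted its markers: the collagen gene Col1a1 had signals of 7845, 12570.2 and 8475 on its brighter probe set (1251, 9553 and 9602 on the other) and the growth factor receptor gene Pdgfra 1626, 2181 and 2818 on FGFR3Act, FGFR3KO and FGFR3WT. All 7 endothelial markers were under the floor on each array, as were the epithelial markers on FGFR3Act and FGFR3WT. Some Schwann cell and skeletal muscle markers were above it. The Schwann cell marker Sox10 had 218, 330 and 197 on FGFR3Act, FGFR3KO and FGFR3WT on 1 probe set, and 15.1, 16.8 and 20.3 on the other. The skeletal muscle marker Acta1 had 221, 1256 and 838 in the same order. Macrophage and leukocyte markers set FGFR3Act apart, with 13 of 15 above the floor and a summed signal of 42113, against 1 of 15 and sums of 1243 on FGFR3KO and 1129 on FGFR3WT. None was listed at 0, and the defining markers Lyz2 (7037 against 48.2 and 51.4) and Csf1r (1446 against 90.2 and 73.8) were among them. The leukocyte gene Ptprc had 263 against 1.56 and 2.05 on 1 probe set, and 29.8, 9.94 and 28.9 on the other. How much these markers bear on the differences of FGFR3Act was not tested, and in bulk RNA fewer cells of a type and less RNA per cell cannot be told apart.

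**Figure D1:**
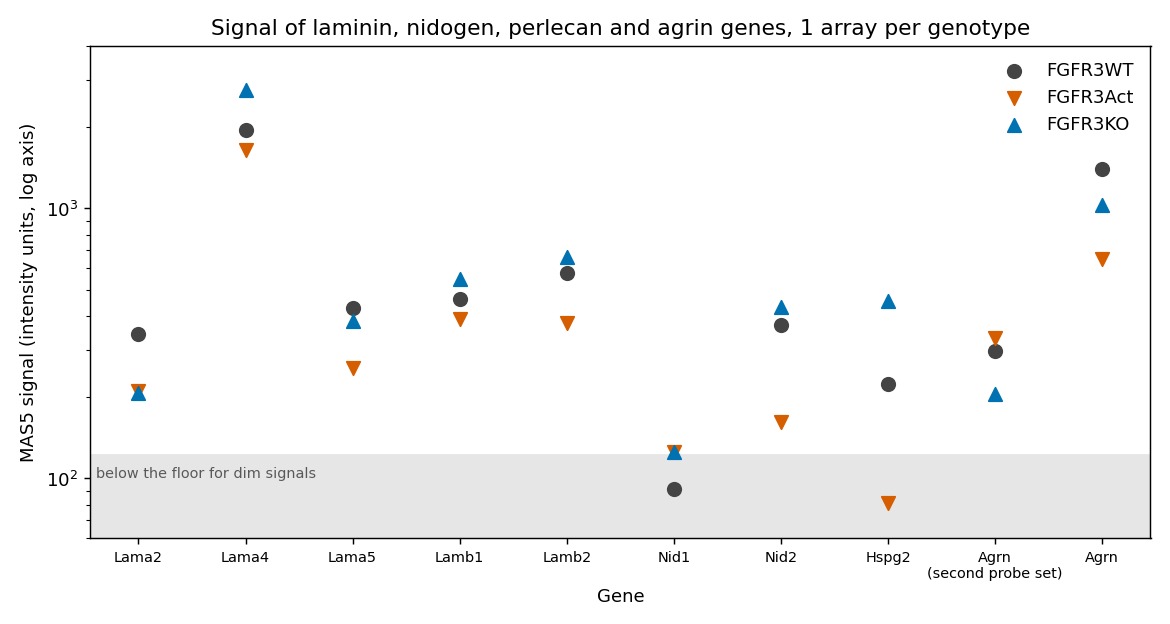
Deposited MAS5 signal (log axis) of the 10 probe sets on the FGFR3WT (circles), FGFR3Act (downward triangles) and FGFR3KO (upward triangles) arrays, 1 point per array, with the range below the floor shaded. FGFR3Act is the lowest point for Lama4, Lama5, Lamb1, Lamb2, Nid2, Hspg2 and the brighter Agrn probe set, and Hspg2 on FGFR3Act (80.8) and Nid1 on FGFR3WT (91.0) lie below the floor.

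The laminin alpha chains decide which receptors a laminin binds. Lama2, the alpha chain of the laminin around muscle fibres and Schwann cells, measured 210 on FGFR3Act, 208 on FGFR3KO and 343 on FGFR3WT. Both mutant arrays thus lay below wild type and next to each other, with folds of 1.63 and 1.65 and log2 differences of -0.71 and -0.72 from the same wild-type array. Lama4, a chain with a shortened arm found in vessel walls and other mesenchymal basement membranes, had 1648 on FGFR3Act, 2746 on FGFR3KO and 1954 on FGFR3WT. FGFR3KO was the high array for Lama4, 1.41-fold above wild type and 1.67-fold above FGFR3Act, while FGFR3Act was 1.19-fold below wild type. Lama5, the most widespread chain of mature epithelial and vascular basement membranes, had 256 on FGFR3Act, 384 on FGFR3KO and 429 on FGFR3WT. For Lama5 the wild-type and FGFR3KO arrays were close (1.12-fold) and FGFR3Act was lower, 1.67-fold below wild type and 0.58 in log2 below FGFR3KO. FGFR3KO was thus the high array for Lama4, and wild type for Lama2 and Lama5. The mutants were 1.01-fold apart for Lama2, so their order for that gene is not readable.

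The beta chains pair with a gamma chain before the alpha chain joins. Lamb1, the beta chain of early and widespread laminins, had 389 on FGFR3Act, 548 on FGFR3KO and 461 on FGFR3WT. Its arrays were 1.19-fold below and 1.19-fold above wild type, and 36.4% of 5244 genes were at least as far below wild type on FGFR3Act. Lamb2, the beta chain of neuromuscular junctions and the kidney filter, had 377 on FGFR3Act, 661 on FGFR3KO and 577 on FGFR3WT. Both beta chains had the same order of genotypes as Lama4, with FGFR3Act lowest and FGFR3KO highest. For Lamb2 the distance of FGFR3Act was larger, 1.53-fold below wild type and 1.75-fold below FGFR3KO. In log2 the 5 laminin chains differed from wild type by -0.74 to -0.25 on FGFR3Act (median -0.61) and by -0.72 to 0.49 on FGFR3KO (median 0.20), and none was 2-fold apart in any pair.

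The nidogens did not move alike. Nid2 had 162 on FGFR3Act, 431 on FGFR3KO and 371 on FGFR3WT. FGFR3Act was the low array, 2.29-fold below wild type (log2 -1.20, a size reached by 2.50% of 5244 genes in that direction) and 2.67-fold below FGFR3KO, while FGFR3KO was 1.16-fold above wild type. Under a 60th-percentile floor, which lies near the Nid2 signals, the FGFR3Act difference from wild type was -0.14. Nid1, the nidogen first isolated with laminin, was dim, at 126 on FGFR3Act, 125 on FGFR3KO and 91.0 on FGFR3WT, the last under the floor. The mutant arrays were nearly equal (1.01-fold) and barely above the floor, at least 1.04-fold and 1.03-fold above wild type, so Nid1 carries no readable difference here.

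Perlecan, the large heparan sulfate proteoglycan of basement membranes and cartilage, had the widest spread of the members. Hspg2 had 80.8 on FGFR3Act, 453 on FGFR3KO and 223 on FGFR3WT. FGFR3Act was under the floor and FGFR3KO the high array, so that the mutants lay on opposite sides of wild type. Relative to FGFR3WT, Hspg2 was lower by at least 1.82-fold on FGFR3Act and higher by 2.03-fold on FGFR3KO, and the mutants were at least 3.70-fold apart. Of 5297 genes, 1.11% were as far below FGFR3KO on FGFR3Act, and of 5184 genes 1.79% as far above wild type on FGFR3KO. With an offset added in place of the floor, the FGFR3KO difference from wild type was 0.98 in log2, just short of 2-fold. Under a 60th-percentile floor it was 0.33, and that of FGFR3Act from FGFR3KO was -0.44.

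Agrin, known from clustering acetylcholine receptors at the neuromuscular junction, gave opposite answers from its 2 probe sets. The brighter one had 649 on FGFR3Act, 1033 on FGFR3KO and 1402 on FGFR3WT, with FGFR3Act lowest, 2.16-fold below wild type (log2 -1.11). The other had 331 on FGFR3Act, 205 on FGFR3KO and 298 on FGFR3WT, with FGFR3KO lowest and FGFR3Act 1.11-fold above wild type. The probe sets had the same direction for FGFR3KO against wild type, 1.36-fold and 1.45-fold lower. No direction for Agrn on FGFR3Act is therefore drawn, and the brighter probe set is the one counted below. After cyclic loess its difference was -0.998 in log2, just short of 2-fold.

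**Figure D2:**
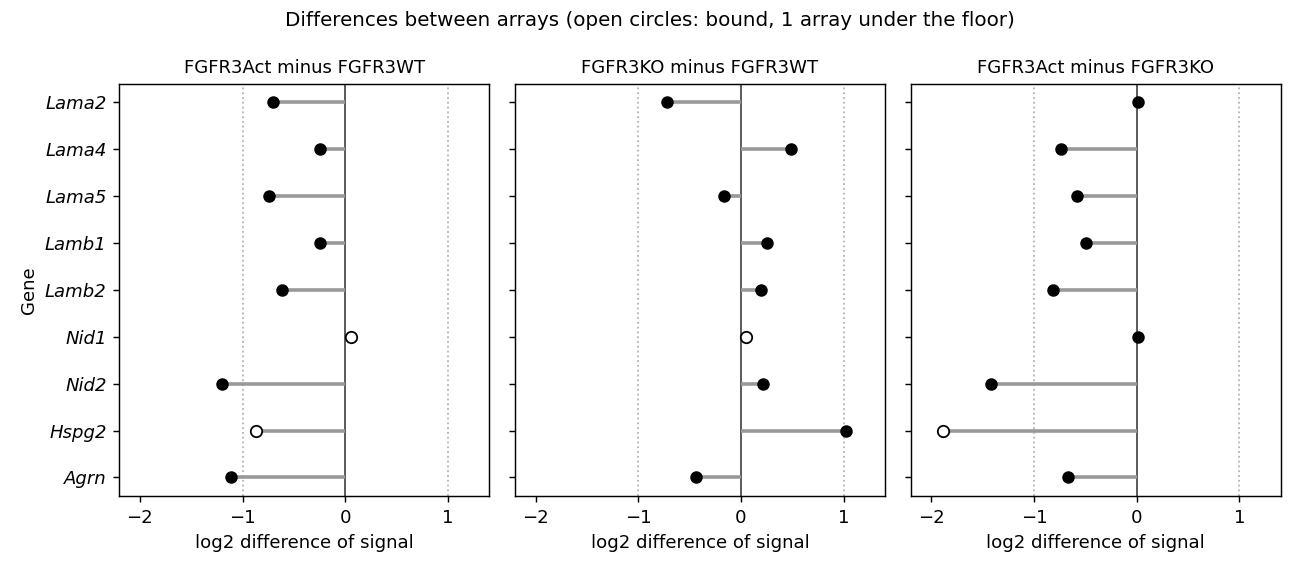
Log2 difference of signal for each of the 9 genes (rows) in the 3 pairs of arrays (panels), with filled circles for differences measured above the floor on both arrays, open circles for bounds, and dotted lines at 2-fold. In the first panel 8 of 9 genes lie left of 0, in the middle panel 6 of 9 lie right of 0, and Hspg2 is furthest right in the middle panel and furthest left in the last. Under the filter Hspg2 could only lie left of 0 in the first and last panels, and Nid1 only right of 0 in the first and middle panels.

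As a group, the members were lower on FGFR3Act than on FGFR3WT. The signal was lower at any size in 8 of 9 (55.7% of 5244 genes were), at least 1.5-fold lower in 6 of 9 (16.3% of genes) and at least 2-fold lower in 2, Nid2 and Agrn (4.79% of genes). No member was at least 1.5-fold higher, against 11.4% of genes. The median log2 difference of the 9 was -0.71, against -0.07 over all genes compared. These counts include Agrn by its brighter probe set. With its dimmer one, 7 of 9 were lower, 5 at least 1.5-fold and 1 at least 2-fold (Nid2), and the median was -0.61. Hspg2, under the floor on FGFR3Act, entered through FGFR3WT alone, which fixed it as lower. Nid1, under the floor on FGFR3WT, was in the same way fixed as higher. With both arrays required above the floor and the brighter Agrn probe set, 7 of 7 were lower. Of these 5 were at least 1.5-fold and 2 at least 2-fold lower (4.44% of genes at 2-fold). A 60th-percentile floor let in 6 members, whose median was -0.30, and 2 of them were at least 1.5-fold lower. The macrophage marker sum of 42113 belongs to the same FGFR3Act array. In this pair 11 fibroblast markers had a median of -0.15, and 4 of them were at least 1.5-fold lower, with Pdgfrb 2.35-fold lower. These values use the brighter probe sets. The dimmer ones of Col1a1 and Col3a1 were further apart, at 1251 and 193 on FGFR3Act against 9602 and 1748 on FGFR3WT.

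On FGFR3KO the members were split. Compared with the same wild-type array, 6 of 9 were higher at any size (48.5% of 5184 genes) and 3 lower (51.5%), with a median of 0.20, against -0.02 over all genes. The 6 include Nid1, which was under the floor on FGFR3WT and entered through FGFR3KO alone. On the deposited signals that fixed it as higher. After cyclic loess it turned to -0.03, leaving 5 higher and 4 lower. With both arrays required above the floor, 5 of 8 members were higher and 3 lower. Hspg2 was the 1 member at least 1.5-fold higher (10.3% of genes) and also the 1 at least 2-fold higher (1.93%), and Lama2 was the 1 at least 1.5-fold lower (13.7%), while none was 2-fold lower (3.61%). At 1.5-fold, 1 of 9 in each direction is close to the background of all genes. The macrophage markers were near wild type on this array, at a sum of 1243 against 1129, and 11 fibroblast markers had a median of 0.30. Pericyte and smooth muscle markers were higher on it as a sum, at 27868 against 16223 on FGFR3WT and 17223 on FGFR3Act. Of 6 that could be compared with wild type, 5 were higher (48.5% of genes), 4 by 1.5-fold or more (10.3%), and the median was 0.74. The smooth muscle myosin gene Myh11 and Kcnj8 are among the 5 and were under the floor on FGFR3WT. They entered through FGFR3KO alone, which fixed their direction. Calponin (Cnn1) was 2.61-fold higher and Myh11 at least 3.06-fold. Mcam, of the same list, went the other way. It was 1.53-fold lower on FGFR3KO, at 609 against 930 on FGFR3WT, and had 373 on FGFR3Act. The pericyte marker Rgs5 was under the floor on all 3 arrays. The part of these markers in the differences of FGFR3KO was not tested.

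Between the mutants, without the wild-type array, 7 of 9 members were lower on FGFR3Act than on FGFR3KO (53.2% of 5297 genes), 5 at least 1.5-fold (20.1%) and 2 at least 2-fold, Hspg2 and Nid2 (7.49%). Hspg2 was under the floor on FGFR3Act and entered through FGFR3KO alone, which fixed its direction. With both arrays required above the floor, 6 of 8 were lower, 4 at least 1.5-fold and 1 at least 2-fold (6.93% of genes). The median of the 9 was -0.67, against -0.05 over all genes and -0.48 over 11 fibroblast markers, of which Col3a1 was 2.42-fold and Pdgfrb 2.07-fold lower on FGFR3Act. The marker values are those of the brighter probe sets, and the dimmer Col3a1 one had 193 on FGFR3Act and 958 on FGFR3KO. Pericyte and smooth muscle markers were lower on FGFR3Act than on FGFR3KO in 6 of 6 (53.2% of genes), with a median of -0.63 and Cnn1 3.93-fold lower. Of these, Myh11 and Kcnj8 were under the floor on FGFR3Act and entered through FGFR3KO alone, which fixed their direction. The part of these markers in this difference was not tested. No member was at least 1.5-fold higher on FGFR3Act (18.5%), and the 2 that were not lower, Lama2 and Nid1, were each 1.01-fold apart. The median is the value of the brighter Agrn probe set. With the dimmer one, which was 1.61-fold higher on FGFR3Act than on FGFR3KO, 6 of 9 were lower, 4 of them at least 1.5-fold, 1 was at least 1.5-fold higher, and the median was -0.58. Over all 3 arrays FGFR3Act was lowest for 7 of 9 members (6 with the dimmer Agrn probe set), against 39.5% of 5382 genes, and FGFR3KO highest for 5, against 37.3%. Hspg2, under the floor on FGFR3Act, is among the 7. With each array required above the floor, FGFR3Act was lowest for 6 of 7. Hspg2 was the 1 member at least 1.5-fold below wild type on FGFR3Act and at least 1.5-fold above it on FGFR3KO, a pattern of 1.62% of genes.

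**Figure D3:**
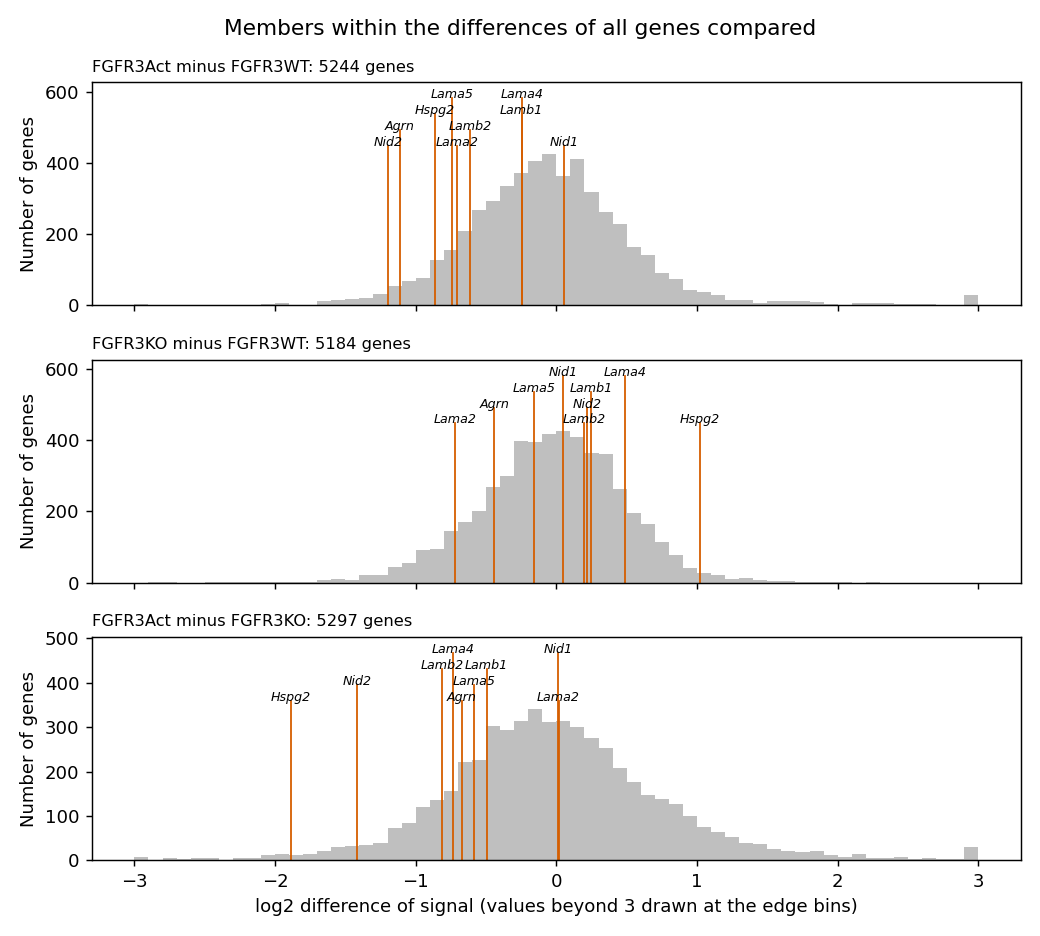
Number of genes (vertical axis) by log2 difference of signal in each pair of arrays, with the 9 members drawn as labelled lines. The members lie mostly left of the bulk of genes in the top panel (median -0.71 against -0.07) and around it in the middle panel (median 0.20 against -0.02).

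The other components of basement membranes gave a smaller difference on FGFR3Act. Of 35 genes listed, among them the collagen IV chains, fibulins and remaining laminin chains, 22 were on the array and 14 could be compared with wild type. On FGFR3Act 10 of 14 were lower, 5 at least 1.5-fold (16.3% of all genes), and 4 were higher, 3 at least 1.5-fold (11.4%), and the median was -0.22. The matrilin gene Matn2 was 2.01-fold lower, at 171 on FGFR3Act, 187 on FGFR3KO and 344 on FGFR3WT, a pattern like that of Lama2. Tinagl1, a tubulointerstitial nephritis antigen-like protein of basement membranes, was 2.67-fold higher, at 590, 309 and 221 in the same order. On FGFR3KO 12 of 17 were higher (48.5% of all genes) and 5 lower (51.5%), with a median of 0.21 (0.20 for the members). Lama1, Col4a5, Col15a1 and Npnt were under the floor on FGFR3WT, so the filter fixed their direction as higher. Smoc1, under the floor on FGFR3KO, was in the same way fixed as lower. Col4a5 could also only come out higher on FGFR3Act. Fibulin 1 (Fbln1), which binds nidogen and laminin, was 2.24-fold higher on FGFR3KO, with signals of 645, 1469 and 657 on its brightest probe set. Its other probe sets differed less, at 250, 379 and 234 and at 537, 919 and 479 in the same order. Col4a1 had 4200, 8975 and 6338, 2.14-fold lower on FGFR3Act than on FGFR3KO. Of the laminin chains of epithelia, Lama3 and Lamb3 were under the floor on all 3 arrays, and Lama1 was above it on FGFR3KO alone (136).

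Receptors for these proteins showed no common direction. Of 25 listed, 14 could be compared with wild type on FGFR3Act, 7 higher and 7 lower, with a median of 0.00, and on FGFR3KO 8 were higher and 6 lower, with a median of 0.05. Itgb4 counts as higher on both mutants only because their floors lay above its FGFR3WT signal. Its signals were 21.0 on FGFR3Act, 110.8 on FGFR3KO and 121.5 on FGFR3WT, with only the last above the floor. Itga3, under the floor on FGFR3WT, was fixed as higher by the filter. Dystroglycan (Dag1), the receptor of Lama2-containing laminin, agrin and perlecan, had 1426 on FGFR3Act, 2349 on FGFR3KO and 2132 on FGFR3WT, which is 1.49-fold lower on FGFR3Act and 1.10-fold higher on FGFR3KO. The integrin subunit shared by most laminin receptors, Itgb1, had 10191, 12323 and 7228 in the same order and was higher on both mutants, by 1.41-fold and 1.70-fold. These are values of its brighter probe set, and the other had 4198, 4077 and 3114. Rpsa, a ribosomal protein also described as a laminin receptor, was 2.29-fold lower on FGFR3Act, at 1679 against 3848. Sarcospan (Sspn), a membrane protein of the dystroglycan complex, was 2.36-fold higher on FGFR3Act than on FGFR3KO, at 2062 against 872.

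Genes that make and trim the heparan sulfate of perlecan and agrin were mostly less than 1.5-fold from wild type, as were most genes compared. Of 27 listed, 11 could be compared. On FGFR3Act 7 were lower and 4 higher than wild type, and the median was -0.14. At 1.5-fold, 2 were higher (11.4% of all genes) and none was lower (16.3%). B3galt6, 1 of the 2, was under the floor on FGFR3WT, which fixed its direction. The chain polymerases Ext1 and Ext2 were 1.43-fold and 1.46-fold lower, and Ugdh, which makes the glucuronic acid donor, was 2.18-fold higher, at 8578 against 3943. On FGFR3KO 4 were higher and 7 lower, with a median of -0.09.

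Proteases that cut basement membranes and their inhibitors had a median above 0 on FGFR3Act, with members in both directions. Of 22 listed, 17 could be compared with wild type, and their median was 0.69. Of these, 9 were at least 1.5-fold higher (11.4% of genes), 5 of them at least 2-fold (4.14%). In the other direction 4 were at least 1.5-fold lower (16.3%), 2 of them at least 2-fold (4.79%). Mmp9, Mmp10, Mmp12 and Ctss were under the floor on FGFR3WT. They entered through FGFR3Act alone, which fixed their direction as higher. Mmp3, a stromelysin that cleaves laminin and nidogen, had 6733 on FGFR3Act, 205 on FGFR3KO and 1405 on FGFR3WT, 4.79-fold higher on FGFR3Act and 6.85-fold lower on FGFR3KO. The lysosomal protease Ctsb was 2.98-fold higher on FGFR3Act, and the macrophage products Ctss and Mmp12 at least 94.6-fold and at least 41.7-fold, on the array with the macrophage markers (sum 42113). Bmp1, a proteinase that trims laminin and procollagen chains, was 3.18-fold lower on FGFR3Act, and Mmp11 2.39-fold lower. On FGFR3KO the median was 0.12 over 13 genes, a set that lacks Mmp9, Mmp10, Mmp12 and Ctss. Mmp3, Mmp13 (4.91-fold) and Timp2 (2.42-fold) were at least 2-fold lower. Of 11 genes that glycosylate dystroglycan, 2 were on the array, and Pomgnt1 and Rxylt1 differed from wild type on FGFR3Act by -0.99 and -0.54 in log2.

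**Figure D4:**
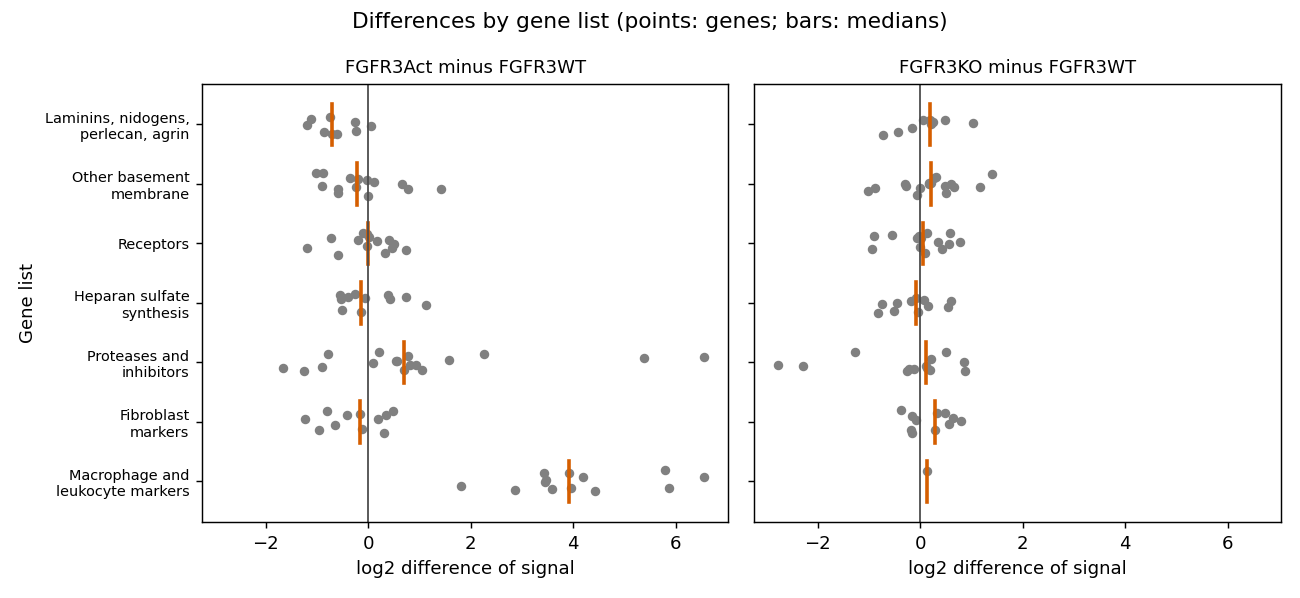
Log2 difference from FGFR3WT (horizontal axis) of each gene in 7 lists (points, spread vertically for legibility) with the list's median as a bar, for FGFR3Act on the left and FGFR3KO on the right. On FGFR3Act the members' median is -0.71, that of the proteases 0.69 and that of the macrophage and leukocyte markers 3.91, while on FGFR3KO the medians of the 7 lists lie between -0.09 and 0.30. Genes under the floor on FGFR3WT could only lie on the higher side, among them Mmp9, Mmp10, Mmp12 and Ctss on the left. The same holds on the left for the macrophage and leukocyte markers, all but 1 of which were under that floor. The bar of that list on the right is a single gene.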

How the data were processed

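RNA from the 3 fibroblast samples was labelled as biotinylated cRNA and hybridised to Affymetrix arrays, per the labels' protocols. Values are linear intensities, 1 for each probe set and sample, which the authors made with MAS5 per the submitters' processing notes. The sources used here give neither its version and scaling target nor detection calls. Of 9889 probe sets, 9053 had 1 symbol in GEO's platform annotation, and 9041 of those were updated through RefSeq (GRCm38.p6). Controls were left out. For a gene with several probe sets, the one with the highest mean log2 signal was used. Signals were floored at the 40th percentile of each array, log2 was taken with no further scaling, and a gene was compared in a pair where at least 1 array was above the floor. The threshold of size was 2-fold, with 1.5-fold also counted. With 1 array per genotype no p-value was computed, and the number of arrays limits the precision. The 3 comparisons share arrays. The members, gene lists and rules were chosen with earlier results of these data known. Genes outside the members were chosen from those at least 2-fold apart above the floor on both arrays, up to 4 per list and pair, and from defining cell type markers. Of these, Cd14 and Cdh5 are not described singly. Lama1, Lama3, Lamb3, Dag1, Itgb1, Ext1, Ext2, Ctss, Mmp12, Pomgnt1 and Rxylt1 were named after their values were seen. So were Kcnj8, Mmp9, Mmp10, Col4a5, Col15a1, Npnt, Smoc1, B3galt6, Itga3 and Itgb4. Alternatives used limma 3.58.1 in R 4.3.3, and the arithmetic was tested on simulated data.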

Additional observations from a re-analysis of the deposited data

Results flagged for a closer look

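Perlecan (Hspg2) lay on opposite sides of wild type in the mutants, measuring 80.8 on FGFR3Act, 453 on FGFR3KO and 223 on FGFR3WT. The log2 difference between the mutants was -1.89, a bound because FGFR3Act was under the floor. Each genotype had 1 array and both comparisons use the same wild-type array, so the difference was not tested.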

How the results depend on the processing

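The median over the members, the counts of members 1.5-fold or 2-fold apart and the count lowest on FGFR3Act were recomputed under 10 alternatives, and under 1 more chosen after the data were seen, which took each gene's dimmest probe set. No median changed sign. Under a 60th-percentile floor, the median for FGFR3Act against FGFR3WT was -0.30, and 2 members were 1.5-fold and 1 was 2-fold lower. For FGFR3KO against FGFR3WT that floor left 0 at least 1.5-fold higher or lower and 0 at least 2-fold higher, and for FGFR3Act against FGFR3KO 3 at least 1.5-fold and 0 at least 2-fold lower. An offset of 12.2 in place of the floor also left 0 at least 2-fold higher for FGFR3KO against FGFR3WT. The count at least 2-fold lower for FGFR3Act against FGFR3WT was 1 after cyclic loess, with the mean over probe sets, without the _s_ and _x_ probe sets and with the dimmest probe set. For FGFR3Act against FGFR3KO it was 1 with both arrays required above the floor and 1 without the _s_ and _x_ probe sets, which removes Nid2. With the dimmest probe set Agrn turned to 0.15 for FGFR3Act against FGFR3WT, and 1 member was at least 1.5-fold higher for FGFR3Act against FGFR3KO. Between 6 and 7 members were lowest on FGFR3Act under every alternative run. Of 283 differences of single members under the alternatives, 278 kept their sign. Many of these could not change. Every member but Agrn had 1 probe set, so choosing or averaging probe sets left its value as it was. Changing the filter altered which members entered but not their values. No scaling moved the median of all genes by over 0.1 in log2. Dim signals limit Hspg2, Nid1, Nid2, Lama2 and Lama5. Under the 60th-percentile floor Lama5 was at -0.36 for FGFR3Act against FGFR3WT and -0.20 against FGFR3KO, and Lama2 and Nid1 dropped out of every pair and Hspg2 out of FGFR3Act against FGFR3WT. No paired analysis was possible because each genotype has 1 array.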
